A study of Mus musculus with 3 samples.

Results

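A set of 8 iron and haem handling genes was followed across the cell types of a mouse brain sort: Fth1, Ftl1, Tfrc, Slc40a1, Slc11a1, Cd163, Hmox1 and Blvrb. They were taken by symbol, and all 8 were found among the 27998 genes of the count matrix. The data are single-cell RNA counts (10x 3′ chemistry, v2 reagents, counted as unique molecular identifiers, UMIs) from cells sorted for Cd11b, a surface integrin of microglia, other macrophages, monocytes, granulocytes, NK cells and many dendritic cells. The cells came from brains without the cerebellum of female C57BL6J mice, 5 months old. The labels describe 3 groups: Ctrl, 1 untreated animal; D0, 2 pooled animals fed a diet with PLX5622, an inhibitor of the receptor Csf1r that microglia need to survive, at 1200 mg/kg for 14 days; and D2, 1 animal returned to control diet for 2 days after 14 days of PLX5622. All cells stand in 1 matrix whose barcodes end in 1, 2 or 3, and nothing used here ties a suffix to a group. Levels are therefore given by cell class and by barcode suffix, and no value below compares a treated with an untreated group. Each suffix is 1 library, so there is no replicate check and no test: the 95% intervals in brackets cover counting error only.

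Cells keep iron in ferritin, a shell of heavy chains (Fth1), which oxidise iron so that it can be stored, and light chains (Ftl1), which help the mineral form. Iron enters most cells on transferrin through its receptor Tfrc and leaves through ferroportin, the product of Slc40a1 and the only known iron exporter of mammals. Macrophages also take in haem: Cd163 is the scavenger receptor for haemoglobin bound to haptoglobin, Hmox1 is the inducible haem oxygenase that opens the haem ring and frees its iron, and Blvrb is a reductase of flavins and of the beta isomer of biliverdin, while the biliverdin that Hmox1 makes is reduced by Blvra. Slc11a1 (Nramp1) moves iron and other metal ions out of phagosomes. Microglia and the macrophages of the brain's borders are known for holding iron.

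Of these genes, 4 are classically controlled after transcription by iron regulatory proteins, which bind a stem with a CAGTGN loop (CAGUGN in RNA) in the messenger: near the 5′ end it blocks translation when iron is low, and in the 3′ untranslated region (UTR) of Tfrc it protects the messenger. UMI counts read only the messenger, so protein levels of these genes cannot be read from them. The sequences are shown because they mark which members carry this element. The motif searched was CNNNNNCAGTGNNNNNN on the transcript's own strand, with the 5 bases on either side of the CAGTGN loop required to pair and G-T pairs allowed. Each line gives 5 further bases on both sides, 5′ to 3′, with the loop in capitals, from the GENCODE M21 transcripts (GRCm38, the same assembly as mm10).
Fth1, 5′ UTR, chr19:9982733-9982759, plus strand: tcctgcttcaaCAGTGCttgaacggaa
Ftl1, 5′ UTR, chr7:45459780-45459806, minus strand: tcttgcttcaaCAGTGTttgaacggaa
Slc40a1, 5′ UTR, chr1:45925466-45925492, minus strand: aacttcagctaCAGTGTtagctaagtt
Tfrc, 3′ UTR, chr16:32631220-32631246, plus strand: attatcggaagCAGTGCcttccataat
Tfrc, 3′ UTR, chr16:32631599-32631625, plus strand: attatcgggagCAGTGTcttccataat
Tfrc, 3′ UTR, chr16:32631664-32631690, plus strand: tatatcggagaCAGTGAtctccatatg
Tfrc, 3′ UTR, chr16:32631711-32631737, plus strand: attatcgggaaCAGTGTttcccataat

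Of all annotated genes with a 5′ UTR, 31 of 20916 (0.148%) held a match there, and 129 of 21039 genes (0.613%) held one in a 3′ UTR. Tfrc, with 4, was the 1 gene with 3 or more in its 3′ UTR. The search allowed no unpaired base in the stem of 5 pairs, so it can miss elements of another shape, in Tfrc too. The Fth1 match began at base 664 of a 795-base 5′ UTR in the transcript read, those of Ftl1 and Slc40a1 at bases 84 and 96. No match stood in the UTRs of Slc11a1, Cd163, Hmox1 or Blvrb, which says only that these letters are not there. Fth1 lies at chr19:9980598-9985098, Ftl1 at chr7:45457944-45459884, Tfrc at chr16:32608920-32632794, Slc40a1 at chr1:45908068-45926523, Slc11a1 at chr1:74375195-74386062, Cd163 at chr6:124304656-124330527, Hmox1 at chr8:75093621-75100589 and Blvrb at chr7:27447978-27466144. All 8 are protein-coding.

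The matrix held 2149 cells: 1263 with suffix 1 (median 3662 UMIs per cell), 599 with suffix 2 (6188) and 287 with suffix 3 (8172), and no barcode sequence was shared between suffixes. After filters 2135 cells remained, 36 of other types were set aside, and the rest were clustered without the 8 members and without 61 other iron and haem genes, so that none of these genes took part in defining a cluster. Classes are called "X-like" after their marker genes. Suffix 1 held 1048 microglia-like and 128 border-associated-macrophage-like cells, and suffix 2 held 62 and 5. Suffix 3 held 2 microglia-like cells. Monocyte-like cells numbered 9, 78 and 57 in suffixes 1 to 3, and 17 combinations of class and suffix had 20 cells or more. The label "microglia" fitted only some of the cells by their markers. A list of 9 microglial markers (P2ry12, Tmem119 and others) summed to 20068 counts per 1000000 UMIs of the same cells (CPM) in microglia-like cells of suffix 1 and to 7600 CPM in those of suffix 2. In border-associated cells these markers reached 11862 CPM, and in the other classes, in sums of 20 cells or more, 65.6 to 2416 CPM. Some smaller sums of suffix 1 held more, with a median of 0.478% of UMIs in 13 neutrophil-like cells and 0.880% in 2 proliferation-led cells. A border-associated list of 10 genes summed to 3085 CPM in its own class and to 194 CPM in microglia-like cells of suffix 1. The NK list stood high in mature-dendritic-cell-like cells, there almost wholly through Ccl5, and the neutrophil-like cluster was also led by Jchain and Mzb1, genes of plasma cells.

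Both ferritin chains were read in nearly every cell of every class. Each gave more UMIs than any other member in each of the 17 combinations, and together they took from 0.273% of all UMIs (NK-like, suffix 3) to 1.83% (microglia-like, suffix 2). Ftl1 shares sequence with processed copies: 5 ferritin pseudogenes are named in the annotation, and the copy Gm10116 was the gene whose levels were most like those of Ftl1 (r = 0.943 over the 17 combinations), at 9.04 to 204 CPM. How reads were split between them is not given in the sources used here, so the ferritin levels carry that uncertainty.

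Fth1 stood at 4880 CPM [4817 to 4945] in microglia-like cells of suffix 1 and at 10604 CPM [10222 to 10997] in those of suffix 2. Border-associated cells of suffix 1 had 7618 CPM [7465 to 7773]. Monocyte-like cells had 8592 CPM in suffix 2 and 4515 CPM in suffix 3, non-classical-monocyte-like cells 6657 and 5229 CPM, and neutrophil-like cells 7054 and 4728 CPM. A cluster led by proliferation genes, which was given no cell type, had 4355 CPM in suffix 2 and 6710 CPM in suffix 3. Dendritic-cell-like cells had 6866, 6291 and 5483 CPM in suffixes 1 to 3. The lowest levels were those of mature-dendritic-cell-like cells (3433 CPM, suffix 2) and of NK-like cells (1869 and 1908 CPM). The NK-like cells were low in both libraries, whereas the libraries of microglia-like cells lay 2.17-fold apart and those of monocyte-like cells 1.90-fold. One monocyte-like cell of suffix 2 held 716 of the 4634 Fth1 UMIs of its class, and without it the level was 7408 CPM.

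Ftl1 was ordered differently. It was highest in non-classical-monocyte-like cells, with 10109 CPM [9474 to 10775] in suffix 2 and 11437 CPM [10960 to 11930] in suffix 3, and in mature-dendritic-cell-like cells of suffix 2, with 10378 CPM [10070 to 10694]. Pooled over suffixes these 2 classes had overlapping intervals at the top of the order. Microglia-like cells had 4709 CPM in suffix 1 and 7676 CPM in suffix 2, border-associated cells 6824 CPM, and monocyte-like cells 7366 and 8309 CPM in suffixes 2 and 3. Neutrophil-like cells stood at 5764 and 4590 CPM, dendritic-cell-like cells between 4385 and 5316 CPM, and the proliferation-led cluster at 3849 and 7078 CPM. NK-like cells were again lowest, at 1021 and 823 CPM.

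**Figure D1:**
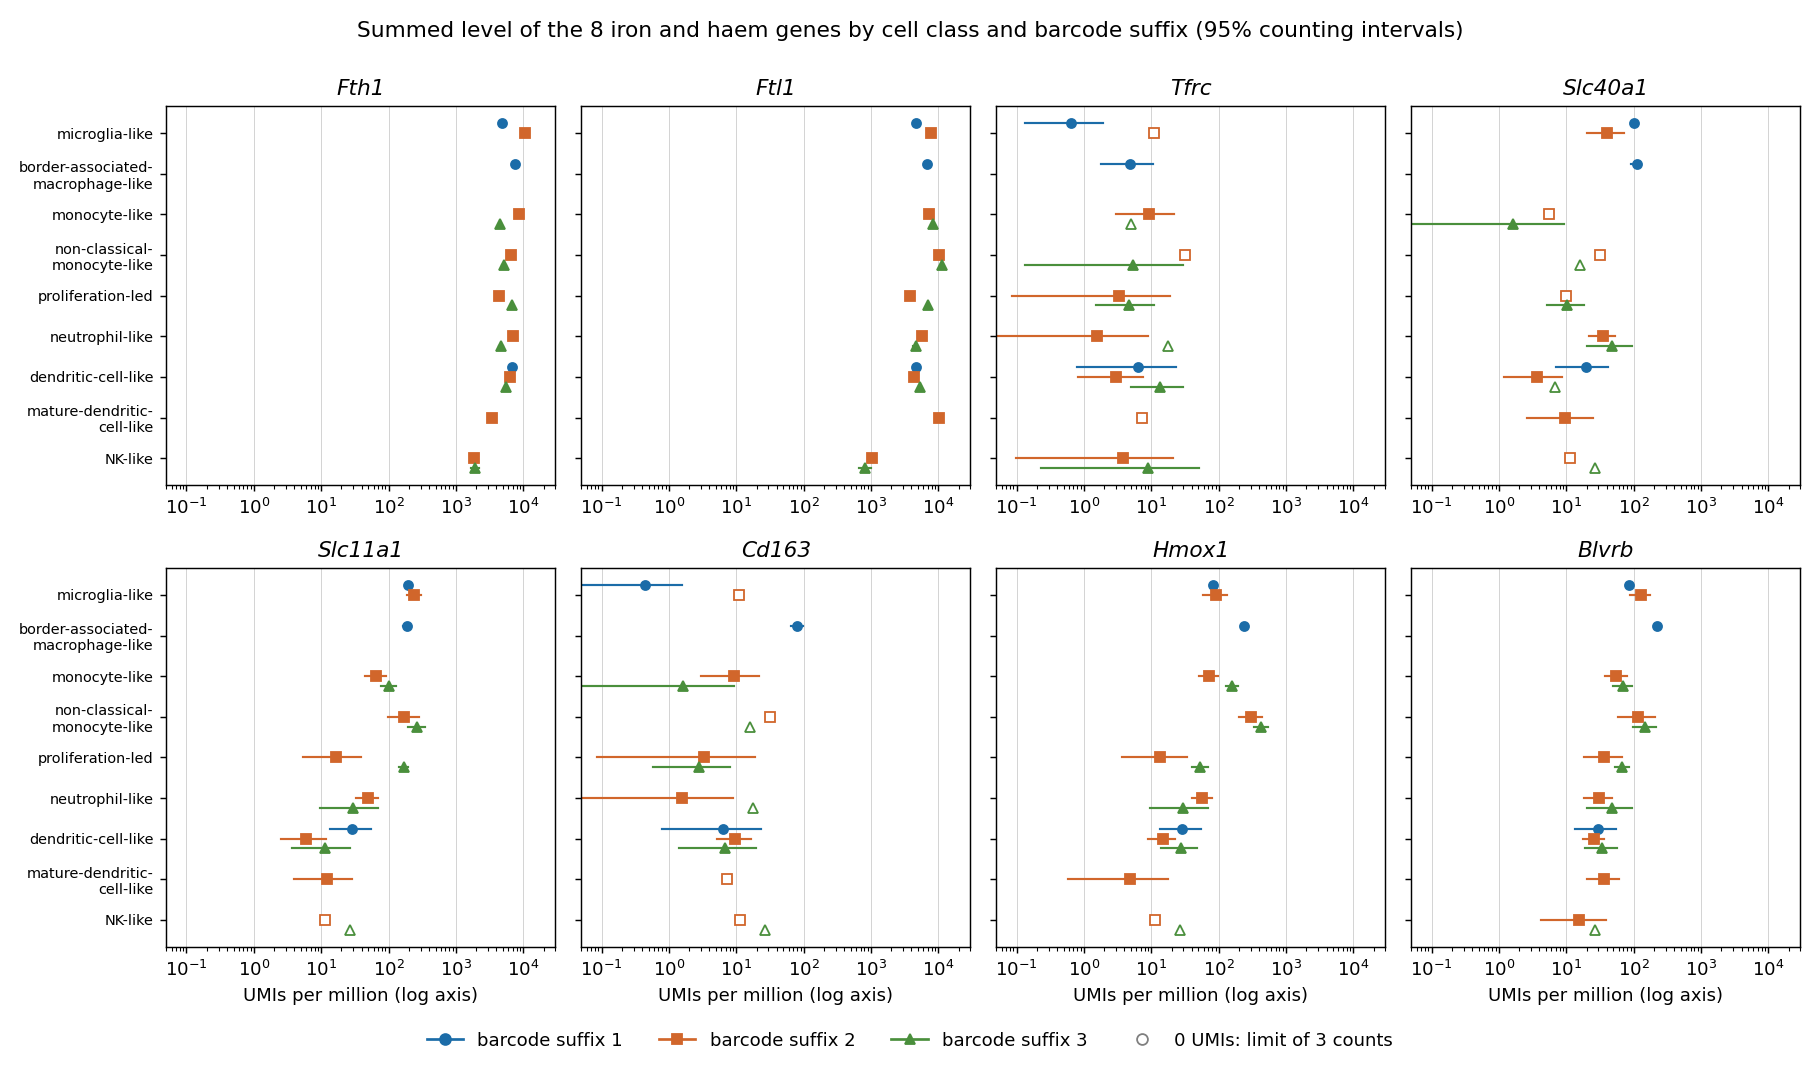
Levels of the 8 members (panels; horizontal axis in CPM, logarithmic) in the cell classes, 1 symbol per barcode suffix with 20 cells or more; bars are 95% counting intervals and open symbols mark sums of 0 UMIs at the limit of 3 counts. Fth1 and Ftl1 lie high in every class, Cd163 stands out in border-associated cells at 79.8 CPM, and Slc40a1 is above 30 CPM only in microglia-like, border-associated and neutrophil-like cells.

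The balance of the chains set some of the classes apart. Because 3′ counts of different genes are not on 1 scale, the ratio of Ftl1 to Fth1 UMIs is compared between classes and not read as a ratio of molecules. Mature-dendritic-cell-like cells had 3.02 Ftl1 UMIs per Fth1 UMI [2.85 to 3.21], the highest of the 17 combinations, whereas other dendritic-cell-like cells of the same library had 0.697 [0.674 to 0.720]. Ftl1 was 2.37-fold higher in the mature cells (log2 1.24 [1.19 to 1.30]) and Fth1 1.83-fold lower (log2 -0.87 [-0.96 to -0.79]). Of the 3 members with at least 50 UMIs in both sums together, Ftl1 alone was at least 2-fold different, and among all genes so tested 11.3% were at least 2-fold higher and 19.1% lower. Mature-dendritic-cell-like cells, marked by Ccr7, came mostly from 1 library: 53 of 58 carried suffix 2.

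Non-classical-monocyte-like cells, which patrol vessels and are marked by Ace and Treml4, had ratios of 1.52 and 2.19 in suffixes 2 and 3. Monocyte-like cells had 0.857 [0.822 to 0.895] in suffix 2 and 1.84 [1.76 to 1.93] in suffix 3. NK-like cells were at the low end, with 0.546 and 0.431. The other classes lay between 0.673 and 1.05.

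The 6 classes considered next had 20 cells or more in both suffixes 2 and 3. In 5 of them, all but NK-like cells, the Ftl1 to Fth1 ratio was higher in suffix 3 with intervals apart. Fth1 itself was lower in suffix 3 in 4 of the 6, and in the proliferation-led cluster it was higher. A list of 12 early response and stress genes (Fos, Jun, Hspa1a and others), which respond to tissue digestion, summed lower in suffix 3 in 6 of 6 classes: 13010 against 7593 CPM in monocyte-like cells and 12596 against 4287 CPM in non-classical-monocyte-like cells. Its part in the ferritin ratio was not tested. Leaving out the cell with the most Fth1 gave 0.917 and 1.88 for monocyte-like cells and 1.54 and 2.46 for non-classical-monocyte-like cells.

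**Figure D2:**
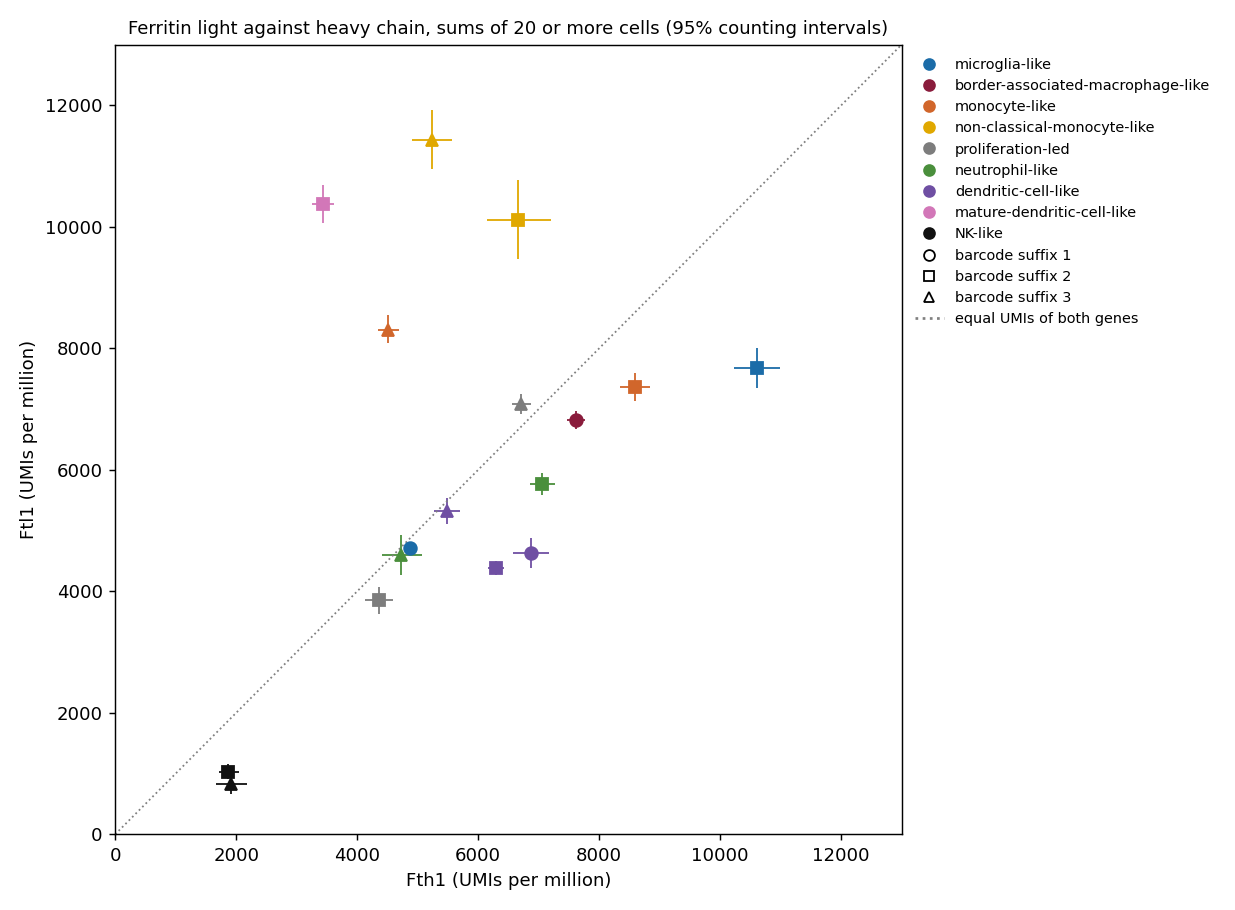
Ftl1 (vertical axis) against Fth1 (horizontal axis), both in CPM, for the 17 combinations of class and barcode suffix; colours are classes, symbols are suffixes, bars are 95% counting intervals. Mature-dendritic-cell-like and non-classical-monocyte-like cells, and the monocyte-like and, by little, proliferation-led cells of suffix 3, lie above the line of equal UMIs, and NK-like cells stand apart near the origin.

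Within a class the 2 chains went together only loosely from cell to cell. After each cell was thinned to 2000 UMIs, Spearman's rho between Fth1 and Ftl1 was 0.245 over 981 microglia-like cells of suffix 1, 0.430 over 80 neutrophil-like cells of suffix 2, 0.115 over 127 border-associated cells and -0.072 over 67 NK-like cells of suffix 2. Cells of 1 library share its depth and handling, and in such sparse counts these values are a description only. The thinned counts spread widely: among microglia-like cells of suffix 1, Fth1 ranged from 0 to 44 UMIs per cell with a median of 8, and in monocyte-like cells of suffix 2 from 1 to 152 with a median of 11.

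Tfrc, the entry route for transferrin iron, was close to the limit of detection everywhere. The whole matrix held 41 Tfrc UMIs. Of the 17 combinations 5 were at 0, and the highest, dendritic-cell-like cells of suffix 3, reached 13.6 CPM on 6 UMIs [4.99 to 29.6]. Microglia-like cells of suffix 1 had 3 UMIs in 1048 cells (0.654 CPM [0.135 to 1.91]). Tfrc is known to be high in dividing cells, yet the proliferation-led cluster of suffix 3 had 5 UMIs in 59 cells (4.68 CPM [1.52 to 10.9]) and an interval that overlapped those of most classes. No order of the classes can be read from Tfrc at this depth.

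Slc40a1, the iron exporter, was read mainly in the resident macrophages of suffix 1. It stood at 102 CPM [93.0 to 112] in microglia-like cells and 110 CPM [92.8 to 131] in border-associated cells of suffix 1, and these 2 intervals overlapped. Microglia-like cells of suffix 2 had 40.2 CPM on 11 UMIs [20.04 to 71.8], an interval that overlapped that of the neutrophil-like cells of suffix 2. Monocyte-like cells had 0 UMIs in 78 cells of suffix 2, which allows up to 5.56 CPM, and 1 UMI in 57 cells of suffix 3. Non-classical-monocyte-like and NK-like cells had 0 in both libraries. Dendritic-cell-like cells had 19.4, 3.69 and 0 CPM in suffixes 1 to 3. Their microglial marker sums were 2378, 278 and 290 CPM, whose part was not tested.

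Neutrophil-like cells came next in Slc40a1, at 34.9 CPM in suffix 2 [21.9 to 52.8] and 47.7 CPM in suffix 3 [20.6 to 94.0]. The 22 UMIs of suffix 2 came from 18 of 88 cells, and the 8 UMIs of suffix 3 from 8 of 29 cells. Monocyte-like cells of suffix 2 had 0 UMIs, and the lower limit of the log2 ratio, which covers the counting error of both sums, was 2.23. When the cells were clustered more finely (Leiden resolution 1), 47 neutrophil-like cells remained in suffix 2 and 20 in suffix 3, with 38.8 CPM of Slc40a1 on 8 UMIs and 57.3 CPM on 6 UMIs. In suffix 2 the finer class summed 206260 UMIs of all genes and the wider one 630675. Most Slc40a1 UMIs of the wider class thus lay outside the finer one, and the level is not shown to be that of neutrophils alone. All other neutrophil-like values given here are those of the wider class. In it, microglial markers summed to 671 CPM in suffix 2, against 510 CPM in the monocyte-like cells of that library, and to 65.6 and 128 CPM in suffix 3. After thinning, 5 of 80 neutrophil-like cells of suffix 2 (6.25% [2.06 to 14.0]) and 0 of 109 NK-like cells held an Slc40a1 UMI.

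Slc11a1, the phagosomal metal transporter, was high in all resident macrophages and in non-classical-monocyte-like cells. Microglia-like cells had 195 CPM [182 to 208] in suffix 1 and 241 CPM [186 to 307] in suffix 2, border-associated cells 189 CPM [165 to 215], and non-classical-monocyte-like cells 172 CPM [98.0 to 279] and 265 CPM [196 to 349] in suffixes 2 and 3. Pooled over suffixes these 3 classes had overlapping neighbouring intervals. Monocyte-like cells were lower, at 64.9 and 102 CPM, and neutrophil-like cells had 49.2 and 29.8 CPM. The proliferation-led cluster differed between libraries, with 16.8 CPM in suffix 2 and 168 CPM in suffix 3. Dendritic-cell-like cells had 29.1, 5.91 and 11.3 CPM, and NK-like cells had 0 UMIs in suffixes 2 and 3.

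Cd163, the haemoglobin scavenger receptor, was read mainly in border-associated cells. That class had 99 of the 131 Cd163 UMIs of the whole matrix in suffix 1 alone, 79.8 CPM [64.9 to 97.2], spread over 42 of 128 cells. The 1048 microglia-like cells of the same library had 2 UMIs (0.436 CPM [0.053 to 1.58]). Dendritic-cell-like cells of suffix 2 had 9.60 CPM on 13 UMIs and monocyte-like cells of suffix 2 had 9.27 CPM on 5. Non-classical-monocyte-like, mature-dendritic-cell-like and NK-like cells had 0. After thinning, 14.2% of border-associated cells [8.62 to 21.5] and 0.204% of microglia-like cells [0.025 to 0.735] held a Cd163 UMI, and before thinning the shares were 32.8% and 0.191%.

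Hmox1, the haem oxygenase, stood at 238 CPM [212 to 267] in border-associated cells, spread over 78 of 128 cells, and at 214 CPM without the cell that held the most. Microglia-like cells had 82.8 CPM in suffix 1 and 91.3 CPM in suffix 2, and monocyte-like cells 72.3 and 159 CPM in suffixes 2 and 3. Neutrophil-like cells had 57.1 and 29.8 CPM, the proliferation-led cluster 13.4 and 53.4 CPM, and dendritic-cell-like cells 29.1, 14.8 and 27.2 CPM. Mature-dendritic-cell-like cells had 2 UMIs and NK-like cells of suffixes 2 and 3 had 0.

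The summed Hmox1 levels of non-classical-monocyte-like cells were the highest of all, 300 CPM in suffix 2 and 429 CPM in suffix 3, but they rested on few cells. In suffix 3, 1 cell of 2796 UMIs held 57 of the 81 Hmox1 UMIs of its class. The same cell had 168 Ftl1 and 110 Fth1 UMIs, which came to 20386 CPM of Hmox1, 60086 CPM of Ftl1 and 39342 CPM of Fth1. It carried 6 of the 10 non-classical monocyte markers, 1 of the monocyte markers, 1 microglial marker, 0 border-associated markers and 0 UMIs of the haemoglobin chains and Alas2. Without it the class had 129 CPM [82.6 to 192]. In suffix 2 the top cell held 9 of 28 UMIs, and the level without it was 211 CPM [127 to 329].

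Blvrb, the flavin and biliverdin beta reductase, was highest in border-associated cells. Border-associated cells had 226 CPM [200 to 254], non-classical-monocyte-like cells 118 and 148 CPM in suffixes 2 and 3, and microglia-like cells 86.3 and 128 CPM in suffixes 1 and 2. Monocyte-like cells had 55.6 and 68.9 CPM, the proliferation-led cluster 36.9 and 67.4 CPM, neutrophil-like cells 30.1 and 47.7 CPM, and dendritic-cell-like cells 25.8 to 34.0 CPM. NK-like cells had 4 UMIs in suffix 2 and 0 in suffix 3.

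Border-associated and microglia-like cells of suffix 1 share 1 library, so they were set side by side directly. Of the 7 members with at least 50 UMIs in both sums together, 3 were at least 2-fold higher in border-associated cells and 0 were lower. Among all 7622 genes so tested, 3.29% were higher and 2.09% lower. The 3 were the haem genes: Cd163 (log2 7.52 [5.63 to 10.6]), Hmox1 (log2 1.52 [1.30 to 1.75]) and Blvrb (log2 1.39 [1.16 to 1.61]). The ferritin chains were higher by less, Fth1 by 1.56-fold and Ftl1 by 1.45-fold. Slc40a1 (log2 0.11 [-0.17 to 0.39]) and Slc11a1 (log2 -0.05 [-0.26 to 0.16]) had intervals that included 0. The median over the 7 was 0.64 on the log2 scale, against -0.04 over all genes tested. The list of 12 stress and early response genes summed to 14792 CPM in border-associated and 11895 CPM in microglia-like cells, and its part was not tested. The haemoglobin chains and Alas2, genes of red blood cell precursors, had 0 UMIs in both.

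The border-associated cluster was not uniform. Of its 128 cells, 76 held UMIs of at least 4 of the 10 border-associated markers, and these were deeper (median 9620.5 UMIs, against 6395 in the other 52). Microglial markers took a median of 1.12% of UMIs in the cluster and 2.10% in microglia-like cells. The border-associated list summed to 4202 CPM in the 76 cells and to 528 CPM in the other 52, which thus fitted the name less well. Microglial markers summed higher than that list in both parts, at 12521 CPM in the 76 cells and 10350 CPM in the other 52. The name thus rests on the cluster and is not settled for each cell. Fth1 was lower in the 76 cells, at 6974 against 9092 CPM (log2 -0.38 [-0.44 to -0.32]). Of the 99 Cd163 UMIs, 98 lay in the 76 cells. Slc40a1 was 140 CPM there and 42.5 CPM in the other 52 cells (log2 1.72 [0.97 to 2.58]) and Blvrb 273 and 117 CPM (log2 1.23 [0.76 to 1.73]), while Hmox1 was 242 and 228 CPM. The stress genes summed lower in the 76 cells, 13042 against 18803 CPM. With Cd163, that made 3 of 7 members at least 2-fold higher in the 76 cells, where 4.43% of all genes were, and 0 lower, where 2.09% were. With the 76 cells alone against microglia-like cells, Cd163, Hmox1 and Blvrb were again the 3 of 7 members at least 2-fold higher, beside 3.57% of all genes, and 0 were lower, beside 2.59%. Slc40a1 was there higher by log2 0.46 [0.16 to 0.75] and Fth1 by 1.43-fold. A cell in this cluster with an Slc40a1 UMI also held a Cd163 UMI in 31 of 62 cases, and a cell without one in 16.7%; depth was not matched between them.

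**Figure D3:**
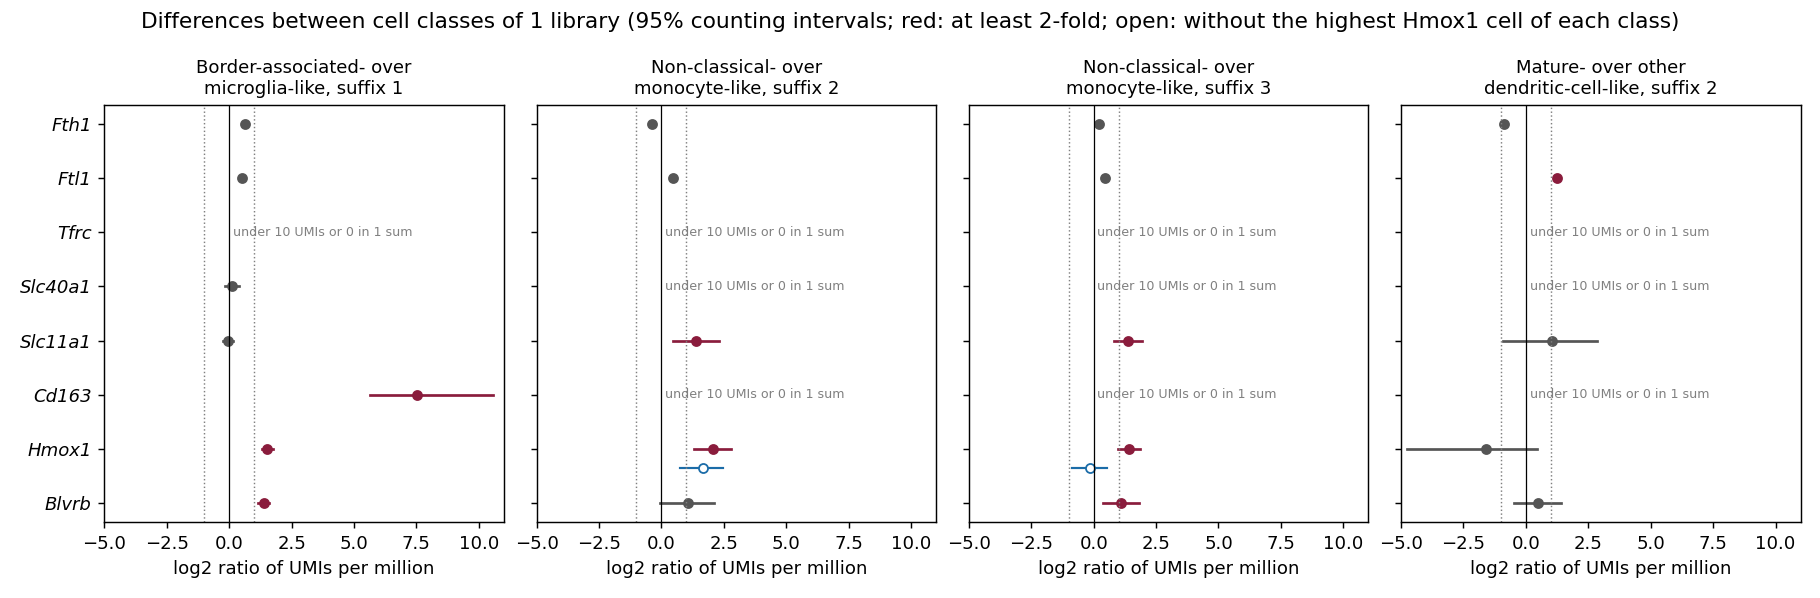
Log2 ratios of CPM between 2 classes of 1 library (horizontal axis) for each member, with 95% counting intervals; red marks members at least 2-fold different, open symbols the ratio without the highest Hmox1 cell of each class. Cd163, Hmox1 and Blvrb stand to the right in border-associated cells, and the Hmox1 excess of non-classical-monocyte-like cells in suffix 3 is at -0.14 without the single highest cells.

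Monocyte-like and microglia-like cells were compared within suffix 2. Slc11a1 was lower in monocyte-like cells by log2 -1.89 [-2.53 to -1.28] and Blvrb by log2 -1.20 [-1.95 to -0.45], which made 2 of the 5 members tested at least 2-fold lower and 0 higher. Among all 1985 genes tested 14.3% were lower and 20.1% higher. Ftl1 (log2 -0.06 [-0.14 to 0.02]) and Hmox1 (log2 -0.34 [-1.10 to 0.45]) had intervals that included 0, and Fth1 was 1.23-fold lower, but log2 0.06 higher with 1 clustering start and no cells set aside. Slc40a1, with 0 against 11 UMIs, was lower, with an upper limit of the log2 ratio of -2.30, but below the 50 UMIs set for a count.

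Non-classical-monocyte-like cells were set against monocyte-like cells within suffixes 2 and 3. Ftl1 was 1.37-fold and 1.38-fold higher. Slc11a1 was higher in both, by log2 1.40 [0.45 to 2.29] and 1.38 [0.81 to 1.94]. Blvrb was higher by log2 1.11 [0.36 to 1.83] in suffix 3, and in suffix 2 its 41 UMIs were too few to count, at log2 1.08 [-0.06 to 2.12]. Hmox1 was higher by log2 2.05 [1.30 to 2.79] and 1.43 [0.99 to 1.87]. Without the highest Hmox1 cell of each class it was higher in suffix 2, by log2 1.65 [0.76 to 2.49], and had an interval including 0 in suffix 3, at log2 -0.14 [-0.86 to 0.53]. With those cells, 2 of 4 members were at least 2-fold higher in suffix 2, where 7.48% of all genes were, and 3 of 5 in suffix 3, where 6.97% were. No member was 2-fold lower, as 13.7% and 10.1% of all genes were. The thinned share of cells with an Hmox1 UMI was 26.1% against 12.8% in suffix 2 and 18.6% against 28.1% in suffix 3, with overlapping intervals in both.

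Neutrophil-like cells had no member 2-fold different from monocyte-like cells in suffix 2 among the 4 tested, where 4.81% of all genes were higher and 11% lower. In suffix 3, Slc11a1 (log2 -1.77 [-3.44 to -0.47]) and Hmox1 (log2 -2.42 [-4.07 to -1.14]) were at least 2-fold lower among 5 tested, beside 35.1% of all genes, and 0 were higher, beside 4.22%. The proliferation-led cluster of suffix 3 had less Hmox1 than monocyte-like cells (log2 -1.58 [-2.07 to -1.09]), 1 of 5 members at least 2-fold lower beside 7.83% of all genes, 0 higher beside 14.3%, and 1.49-fold more Fth1. In suffix 2 neither of its 2 members tested, the ferritin chains, was 2-fold different, at log2 -0.98 and -0.94, where 8.45% of all genes were higher and 11.1% lower. A set of 16 monocyte-like cells held UMIs of 3 or more of 20 proliferation genes, 14 of them with suffix 3. Against the other 119 of suffixes 2 and 3, 0 of 5 members were 2-fold different, where 1.55% of all genes were higher and 5.41% lower. Within suffix 3, Fth1 differed by log2 0.07 [-0.04 to 0.19] between the 14 and the other 43 cells and Hmox1 by log2 0.70 [0.09 to 1.31]. Of the 4 members tested within suffix 3, 0 were 2-fold different, where 1.08% of all genes were higher and 2.35% lower. Suffix 2 had 2 such cells, and 0 of 2 members were 2-fold different there, where 5.66% of all genes were higher and 16.2% lower.

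Across libraries, microglia-like cells of suffix 2 had 2.17-fold the Fth1 of those of suffix 1 (log2 1.12 [1.06 to 1.18]), 1.63-fold the Ftl1 (log2 0.70 [0.64 to 0.77]) and 2.54-fold less Slc40a1 (log2 -1.35 [-2.36 to -0.49]). That made 1 of 6 members at least 2-fold higher, where 2.92% of all genes were, and 1 lower, where 18.6% were; the median over all genes was -0.33 and over the 6 members 0.44. The 2 suffixes are 2 libraries of unknown group, and their microglia-like cells differed in make-up. The 4 microglia-like clusters, named here after genes among their 10 leading ones (P2ry13, Hes1, Tnf with Ccl3, and Cst7), held 463, 412, 148 and 25 cells of suffix 1 and 11, 4, 21 and 26 cells of suffix 2. When the cells were clustered from 1 start and no cells were set aside, 46 microglia-like cells of suffix 2 remained, Fth1 differed by log2 0.74 and Slc40a1 by log2 -0.36, and no member was 2-fold different.

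The genes highest by fold in the Tnf and Ccl3 cluster were Acta2, Myl9 and Tagln, genes of contractile vessel cells. All 518 UMIs of these 3 genes there lay in 2 of its 21 suffix 2 cells, and its 148 cells of suffix 1 held 0. Without cells holding such a UMI, Fth1 was higher in suffix 2 than in suffix 1 of that cluster by log2 1.10 [1.03 to 1.18], Hmox1 differed by log2 -1.38 [-3.03 to -0.11] and Slc40a1 by log2 -1.37 [-3.28 to 0.05], an interval that then included 0.

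Within suffix 1 the 4 microglia-like clusters differed in ferritin. Fth1 was 3922 CPM in the P2ry13 cluster, 4789 CPM in the Hes1 cluster, 6386 CPM in the Tnf and Ccl3 cluster and 6904 CPM in the Cst7 cluster, and Ftl1 was 3490, 4792, 6312 and 5802 CPM. Hmox1 was 46.6 CPM in the P2ry13 cluster and 102 CPM in both the Hes1 and the Tnf and Ccl3 clusters (each log2 1.14), the 1 member of 6 at least 2-fold higher in each, where 1.35% and 1.97% of all genes were. No member was 2-fold lower there, as 0.159% and 1.32% of all genes were. The Cst7 cluster had 0 Hmox1 UMIs in 25 cells, which allows up to 36.7 CPM, and 0 of 6 members 2-fold different from the P2ry13 cluster, where 2.73% of all genes were higher and 21.6% lower. In suffix 2 the Cst7 cluster had 0 of 3 members 2-fold different from the other microglia-like clusters, where 0.443% of all genes were higher and 9.9% lower. Within suffix 1, Slc40a1 ran from 81.3 CPM in the Tnf and Ccl3 cluster to 112 CPM in the P2ry13 cluster (log2 -0.47 [-0.88 to -0.07]). The stress and early response genes summed to 5345, 12065, 22493 and 1701 CPM in the 4 clusters of suffix 1. In suffix 1, Hmox1 was lower in the 2 clusters with the lower sums. Fth1 had overlapping intervals in the clusters with the lowest and the highest sum, Cst7 [6346 to 7498] and Tnf and Ccl3 [6226 to 6549]. The pattern was otherwise in suffix 2, where the stress sum was 17911 CPM in the Tnf and Ccl3 cluster and 3873 CPM in the Cst7 cluster. Hmox1 was 36.9 and 133 CPM in these 2, on 5 and 11 UMIs, and Fth1 13439 and 8544 CPM. The part of the stress genes was not tested.

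Between suffixes within a cluster, Fth1 in the Tnf and Ccl3 cluster was 13439 CPM in suffix 2 and 6386 CPM in suffix 1 (log2 1.07 [1.00 to 1.15]), while Slc40a1 (log2 -1.46 [-3.37 to -0.05]) and Hmox1 (log2 -1.47 [-3.13 to -0.20]) were lower on 4 and 5 UMIs. These were 1 of 6 members at least 2-fold higher and 2 lower, where 3.57% and 18.5% of all genes were. The stress list summed lower there in suffix 2, at 17911 CPM. Microglial markers also summed lower in the suffix 2 cells of this cluster, at 5476 CPM against 16615 CPM in suffix 1. In the Cst7 cluster Fth1 differed by log2 0.31 [0.15 to 0.47] and Ftl1 by log2 0.37 [0.20 to 0.55], and 0 of the 2 members tested were 2-fold different, where 4.77% of all genes were higher and 3.34% lower. Hmox1, too sparse for that count, went the other way from the Tnf and Ccl3 cluster, with 11 UMIs in 6 of 26 cells of suffix 2 (133 CPM) against 0 UMIs in suffix 1 (lower limit of the log2 ratio 1.31).

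**Figure D4:**
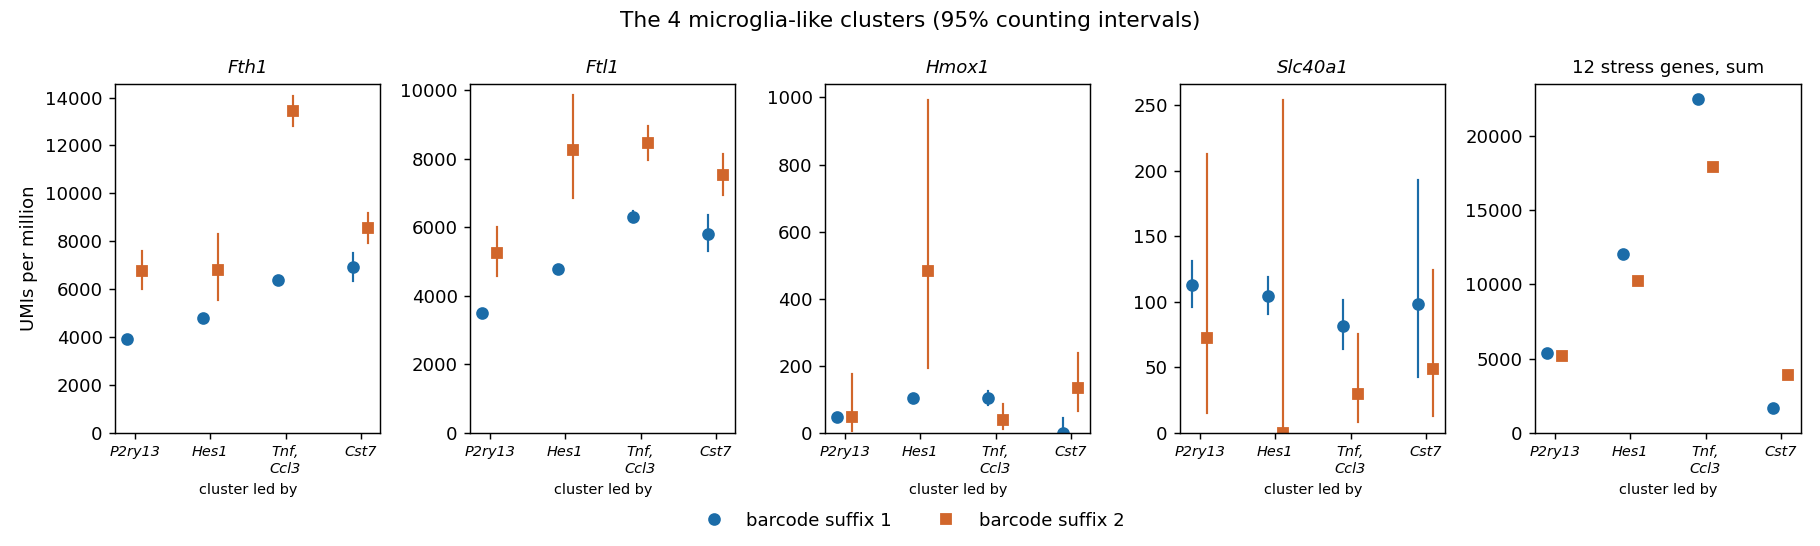
Fth1, Ftl1, Hmox1, Slc40a1 and the sum of 12 stress genes (vertical axes, CPM) in the 4 microglia-like clusters by barcode suffix, with 95% counting intervals for the single genes; 2 of the suffix 2 points rest on 4 and 11 cells. In suffix 1, Fth1 runs from 3922 CPM in the P2ry13 cluster to 6904 CPM in the Cst7 cluster, whose interval overlaps that of the Tnf and Ccl3 cluster. The suffix 2 value of the Tnf and Ccl3 cluster is the highest at 13439 CPM.

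Monocyte-like cells of suffix 3 had 2.20-fold the Hmox1 of those of suffix 2 (log2 1.14 [0.59 to 1.71]), the 1 of 5 members at least 2-fold higher, where 3.17% of all genes were; 0 were lower, where 4.44% were. Without the highest Hmox1 cell of each, the levels were 142 and 67.2 CPM. Fth1 was lower in suffix 3 by 1.90-fold (log2 -0.93 [-0.997 to -0.860]) and Ftl1 higher by 1.13-fold. In dendritic-cell-like cells the same pair of libraries differed by 1.15-fold in Fth1 and 1.21-fold in Ftl1, and 0 of 3 members were 2-fold different, where 3.57% of all genes were higher and 2.68% lower.

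The 61 other iron and haem genes were read in the same sums. Of the 14 genes of iron uptake and release, Trf, Lcn2 and Ltf had the most UMIs. Trf, which encodes the iron carrier transferrin, stood at 1280 CPM in microglia-like cells of suffix 1, 1365 CPM in those of suffix 2 and 1225 CPM in border-associated cells. Monocyte-like cells had 384 CPM of Trf in suffix 2 and 107 CPM in suffix 3, and that difference of log2 -1.85 [-2.27 to -1.44] was the 1 change of at least 2-fold among the 14 tested of the 61 between the 2 libraries, where 4.44% of all genes were lower. Lcn2 and Ltf, the iron-binding proteins of neutrophil granules, were neutrophil-like genes: Lcn2 had 2971 and 9151 CPM and Ltf 1860 and 6152 CPM in suffixes 2 and 3, against 20.4 and 55.8 CPM of Lcn2 in monocyte-like cells. Hfe, which acts on iron sensing with the transferrin receptors, was higher in non-classical-monocyte-like than in monocyte-like cells, at 204 against 98.3 CPM in suffix 2, where the intervals overlapped, and 429 against 85.3 CPM in suffix 3.

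Between border-associated and microglia-like cells of suffix 1, 39 of the 61 genes were tested, 2 were at least 2-fold higher and 1 lower, where 3.29% and 2.09% of all genes were, shares near those of the list. Cp, the ferroxidase ceruloplasmin that works beside ferroportin, had 46.8 against 1.31 CPM (log2 5.16 [3.95 to 6.66]). The border-associated cluster was also led by Ptgds and Dcn, which are outside its marker list. How Cp was spread over its cells is not given here. Slc25a28, a mitochondrial iron importer, was higher by log2 1.01 [0.33 to 1.66]. Abcg2, a transporter that exports haem precursors, was lower, at 19.4 against 43.8 CPM. By list, these were 1 higher of 5 tested in iron uptake and release, 1 higher of 12 in haem synthesis and mitochondrial iron, 1 lower of 7 in haem uptake, transport and breakdown, and 0 of 5 and 0 of 10 in iron storage and sensing and in the regulators. Between monocyte-like and microglia-like cells of suffix 2, 12 were tested, of which 1 was higher and 3 lower, where 20.1% and 14.3% of all genes were. Hp, the haemoglobin-binding haptoglobin, was higher (497 CPM against 0 UMIs, lower limit of the log2 ratio 5.20), and Trf (log2 -1.83), the haem and lipoprotein receptor Lrp1 (log2 -1.23) and the Nrf2 partner Mafg (log2 -1.25) were lower. Between microglia-like cells of suffixes 2 and 1, 35 were tested, 1 was at least 2-fold higher, the haem-binding Hebp1 (log2 1.08 [0.57 to 1.56]), and 4 were lower, all with intervals of their levels that overlapped between the suffixes. Among all genes 2.92% were higher and 18.6% lower there.

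Mature-dendritic-cell-like cells differed from other dendritic-cell-like cells of suffix 2 by at least 2-fold in 7 of the 15 genes tested, 2 of them higher and 5 lower, where 11.3% of all genes were higher and 19.1% lower. Iscu, the scaffold on which iron-sulphur clusters are built, had 949 against 129 CPM (log2 2.88 [2.62 to 3.14]), and Hp 84.9 against 14.0 CPM. Trf (60.6 against 379 CPM), Hfe (53.4 against 132 CPM), the haem transporter Slc48a1 (29.1 against 86.4 CPM) and Nfe2l2 (141 against 284 CPM), which encodes the oxidative stress regulator Nrf2, were lower with intervals that left out 0. The genes with the most UMIs in the other lists were then compared between the resident macrophages. Pcbp1 and Pcbp2, chaperones that deliver iron to ferritin, and Gpx4, a peroxidase that protects membrane lipids, were at 331 CPM (Gpx4), 229 CPM (Pcbp1) and 220 CPM (Pcbp2) in border-associated cells and at 354, 224 and 185 CPM in microglia-like cells of suffix 1. Fbxl5, which senses iron and marks an iron regulatory protein for breakdown, had 31.5 and 26.6 CPM in the same 2 sums. Hmox2, the constitutive haem oxygenase, had 155 and 160 CPM. Alas1, the first enzyme of haem synthesis, had 58.1 and 54.5 CPM, and Urod, a later enzyme of that route, 21 and 25.9 CPM. None of these 7 was 2-fold different between border-associated and microglia-like cells. Slc7a11, the cystine importer, was higher in neutrophil-like than in monocyte-like cells of suffix 2 (195 against 61.2 CPM) and of suffix 3 (358 against 37.7 CPM).

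Over the 17 combinations of class and suffix, the levels of 3 members ran alike: Pearson's r on log2(CPM + 10) was 0.907 between Slc11a1 and Hmox1, 0.897 between Slc11a1 and Blvrb and 0.877 between Hmox1 and Blvrb. Fth1 and Ftl1 gave 0.733, and the lowest value was -0.376, between Tfrc and Slc40a1. Among 5803 genes, those most like each member were Nfe2l2 (r = 0.923), Tlr2 and AF251705 for Fth1; Gm10116, Ogfrl1 and Spi1 for Ftl1; Ddx26b (r = 0.901), Fcrl1 and C5ar2 for Slc40a1; and Tlr7 (r = 0.951), Creg1 and Lyn for Slc11a1. For Cd163 they were Cd209f (r = 0.889), Mrc1 and Cbr2, of which Mrc1 and Cbr2 are among the genes that name the class. For Hmox1 they were Pou2f2 (r = 0.919), Clec4a3 and Slc11a1, for Blvrb Pou2f2 (r = 0.916), Lyl1 and Adam17, and for Tfrc Cd72 (r = 0.801), Jarid2 and l7Rn6. For Hmox1 the values of r include the sum of non-classical-monocyte-like cells of suffix 3, where 1 cell held 57 of 81 UMIs. That sum was 429 CPM, and 129 CPM without the cell. The points share libraries, depths and a few contrasting classes, so the values describe these 17 sums and no more.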

How the data were processed

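The authors deposited 1 matrix of UMI counts, made with Cell Ranger 2.0.1 on mm10 per the submitters' processing notes (0 unused sample columns). Cells with under 500 genes or over 10% mitochondrial counts were removed (5 of 2149), then 9 doublets of 2144 (0.42%, so few that doublets may remain). A further 36 cells of other types were set aside by their leading genes. The rest were clustered without the members and the other iron and haem genes, the Ftl1 copy Gm10116 staying in (scanpy 1.11.5, 2000 variable genes, 30 components, 15 neighbours, Leiden resolution 0.5 with igraph 0.11.9, best of 50 starts), into 12 clusters, 11 named by at least 3 markers.

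Counts were summed per class and suffix; CPM are counts per 1000000 counts of the same cells. Intervals are exact at 95% (Poisson for levels, conditional binomial for ratios, Clopper-Pearson for shares; scipy 1.17.1, numpy 2.4.6). A sum of 0 was given 3 counts as its limit. "At least 2-fold" also needs 50 UMIs in both sums together. Shares used cells thinned to 2000 UMIs. The script was checked on simulated counts. Some marker genes used to name clusters are not reported here, and the printed marker sums leave them out.

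All 8 members are named; of the other iron and haem genes, the 3 with the most UMIs in each list and those at least 2-fold different with intervals that did not overlap; and per member the 3 genes most like it, among genes with 200 UMIs, over sums of 20 cells or more. In comparisons added later that rule was not followed in full: some genes that met it are not named, and Hfe in suffix 2, outside it, was chosen after its values were seen. Members and lists were chosen with earlier results of these data known. The clustering was settled, by the classes' markers, after other partitions with members' levels had been seen. Comparisons of non-classical, mature-dendritic-cell-like, neutrophil-like and proliferation-led cells and of single microglia-like clusters, the split by 4 markers, the values without single cells or cells with contractile genes, and the finer clustering of neutrophil-like cells were added after seeing the data. The labels' protocol speaks of 4 samples and 3 are described; as suffixes are tied to no group, study groups were not compared.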

Additional observations from a re-analysis of the deposited data

How the results depend on the processing

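No paired analysis was possible because each barcode suffix is 1 library tied to no group or replicate. The alternatives in filters, clustering, cell naming, scaling and thinning were run for the 5 comparisons planned at the start and not for the others. In those 5, no member's log2 ratio changed sign where it had been at least 2-fold; smaller ratios crossed 0 in a few, among them Fth1 between monocyte-like and microglia-like cells. Outside them, Hmox1 between non-classical-monocyte-like and monocyte-like cells of suffix 3 went from log2 1.43 to -0.14 without the highest cell of each. The count of 3 members at least 2-fold higher in border-associated than in microglia-like cells, and the count of 2 lower in monocyte-like than in microglia-like cells, kept within 1.5 times under every alternative run. The border-associated class of suffix 1, however, shrank from 128 to 11 cells under naming cell by cell, and to 95 with 1 clustering start. Under naming cell by cell the microglia-like cells of suffix 1 rose from 1048 to 1171. Between microglia-like cells of suffixes 2 and 1 the count of 2 became 1 with cells named one by one, 1 with at least 1000 genes per cell and 0 with 1 clustering start and no cells set aside. Between monocyte-like cells of suffixes 3 and 2 the count of 1 became 0 with the members and other iron genes kept in the clustering, 0 with at most 5% mitochondrial counts, 0 with at least 1000 genes, 0 with the mean of per-cell CPM and 0 with 1 clustering start, and 2 with cells named one by one and 2 with median-of-ratios size factors. For cycling monocyte-like cells the count of 0 became 1 with 5 of 20 proliferation genes required and 1 after thinning to 2000 UMIs. Pooled over suffixes, 4 members were highest in border-associated cells, and 0 without suffix 1, which held nearly all of that class. For Slc40a1, 1 of the 4, the interval overlapped that of microglia-like cells (108 against 98.1 CPM). How many of all genes were highest in that class was not counted. Members with a higher share in border-associated than microglia-like cells, by intervals that did not overlap, numbered 3 after thinning and 6 without it. Border-associated cells of suffix 1 were deeper (median 7986 UMIs, against 3326.5 in microglia-like cells), and the same count over all genes was not made. The counts of 3 and 6 are therefore not read as a trait of these members. The cause of these changes was not tested. Tfrc, and Cd163 outside the border-associated class, were limited by depth.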
